A study of Mus musculus with 4 samples.

Results

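The Hippo kinase cascade was followed through 10 genes, Lats1, Lats2, Stk3, Stk4, Sav1, Nf2, Mob1a, Mob1b, Wwc2 and Taok1, cell by cell, in sorted stroma of the mouse small intestine in which Lats1 and Lats2 had been targeted. The genes were chosen by name for their place in the pathway, and all 10 were found among the 18619 genes of the expression matrix. PDGFRβ+ intestinal stromal cells (IntSCs) came from adult C57BL/6J mice that carried Pdgfrb-CreERT2 (a Cre recombinase made where Pdgfrb is active and switched on by tamoxifen), a tdTomato reporter and floxed alleles of both genes (Lats1f/f Lats2f/f). The cells were sorted by FACS on the reporter and sequenced with a droplet kit that counts unique molecular identifiers (UMIs) near the 3-prime end of each transcript. Of 4 samples in 3 groups (2 of WT, 1 of LATS1/2 KO at 1 week and 1 of LATS1/2 KO at 2 weeks after tamoxifen), only the knockout library at 1 week was used, and the others were not analysed here. Every comparison therefore sets groups of cells from a single library side by side, with no replicate and no test, and the Cre driver limits the deletion to cells with Pdgfrb activity. Levels are given as CPM, the UMIs of a gene for each 1000000 UMIs counted in the cells named. Values in brackets are 95% intervals, exact except where said, which cover counting error only and not the spread between mice.

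In the Hippo pathway the MST kinases, encoded by Stk3 and Stk4, act with the scaffold SAV1 to activate the LATS kinases, which need the cofactors MOB1A and MOB1B. Active LATS1 and LATS2 phosphorylate the coactivators YAP and TAZ, which are then held in the cytoplasm or degraded and no longer drive transcription with TEAD factors. NF2, WWC2 and TAOK1 stand upstream of the kinases, and Lats2 is itself known as a gene that YAP and TAZ switch on as feedback. In the gut stroma the pathway is known for tying mechanical cues to the expression of secreted factors by fibroblasts.

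The promoters of Lats1, Lats2 and Wwc2 are shown because the levels of these genes differed most between the cells compared below. Each run covers 250 bases before to 30 bases after a transcription start, from RefSeq on GRCm38.p6, read 5′ to 3′ on the strand of the gene. Capitals mark GGAATG or its complement CATTCC, the core letters of the TEAD motif.
Lats1, chr10:7680959-7681238, plus strand: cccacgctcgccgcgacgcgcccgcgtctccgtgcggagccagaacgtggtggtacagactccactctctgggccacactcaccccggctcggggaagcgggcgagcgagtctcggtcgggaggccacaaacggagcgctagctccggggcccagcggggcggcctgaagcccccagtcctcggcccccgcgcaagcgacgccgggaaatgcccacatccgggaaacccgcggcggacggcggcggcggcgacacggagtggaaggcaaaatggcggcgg
Lats2, chr14:57746094-57746373, minus strand: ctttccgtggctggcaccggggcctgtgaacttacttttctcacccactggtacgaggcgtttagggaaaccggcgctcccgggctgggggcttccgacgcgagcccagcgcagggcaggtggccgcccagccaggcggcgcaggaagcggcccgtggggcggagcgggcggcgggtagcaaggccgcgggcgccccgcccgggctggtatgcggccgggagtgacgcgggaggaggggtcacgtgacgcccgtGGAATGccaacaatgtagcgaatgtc
Wwc2, chr8:47990515-47990794, minus strand: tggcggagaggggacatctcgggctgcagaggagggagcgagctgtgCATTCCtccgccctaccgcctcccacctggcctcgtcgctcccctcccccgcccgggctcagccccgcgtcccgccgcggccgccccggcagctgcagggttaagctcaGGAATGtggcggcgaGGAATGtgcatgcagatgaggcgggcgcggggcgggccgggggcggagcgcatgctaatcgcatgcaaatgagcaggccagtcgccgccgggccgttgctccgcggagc
The letters occurred 0 times in the window of Lats1, 1 time in that of Lats2 (from base 5 after the start) and 3 times in that of Wwc2 (from bases -203, -94 and -79). On either strand, 13.9% of 32817 promoter windows of the same length held the motif. Among the other members, Sav1 and Mob1a held it 1 time each, a second start of Lats2 and the windows of Stk4, Nf2, Mob1b and Taok1 held it 0 times, and Stk3 had no window in the table. A match is a stretch of letters and was not tested as a binding site. Both windows of Lats2 lie inside the gene as annotated in GENCODE M21, with its 5′ end at 57758388. No window at that end was read.

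The library held 4108 cells with a median of 10726 UMIs (range 1965 to 35727), and a UMI of Pdgfrb was found in every cell. Cells with Xist and cells with Y-linked UMIs were both present, so animals of both sexes had been pooled. Louvain clustering, for which the members, the other pathway genes and the YAP/TAZ targets were kept out, gave 10 clusters numbered by size. Cluster 3 was FB4-like (4 of 4 markers of the submucosal fibroblasts), cluster 7 FB5-like (6 of 6 markers of the subepithelial fibroblasts), cluster 8 SMC-like (6 of 6 smooth muscle markers) and cluster 10 vFB3-like (5 of 5 markers of a villus fibroblast). None of the FB5 markers was among the 10 leading genes of cluster 7, while Kcnj8 and Abcc9, known from mural cells, were, and 1 of the 7 mural markers was high there. Cluster 7 also reached 3 of the 6 smooth muscle markers (Myh11, Acta2 and Tagln), with a summed level of 7118 CPM for that list and 3224 CPM for the FB5 list. Cluster 9 was high in 7 of 7 mural cell markers but stayed unnamed, since Ano1, a marker of interstitial cells of Cajal, was among its leading genes and no mural marker was. Clusters 1, 2, 4, 5 and 6 reached no list and are called unnamed fibroblasts. The summed level of the 3 markers of vFB1-2, another villus fibroblast, was 4209 to 6521 CPM in them, against 538 CPM in FB4-like cells and 4336 CPM in SMC-like cells. Clusters 1 and 6 each reached 3 of the 5 vFB3 markers, fewer than the 75% asked for. Summed markers stayed at or below 8.64 CPM for endothelial, 0.807 CPM for epithelial and 55.3 CPM for immune cells in all clusters. Those of interstitial cells of Cajal reached 226 and 93.3 CPM in clusters 7 and 9 and at most 60.4 CPM elsewhere, and those of glia 60.5 CPM in cluster 9.

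For identity, the leading genes were Tex14, Sertm1 and Ecscr in cluster 1, Il1b, Vwc2 and Ttyh1 in cluster 2, and Cd81, Cilp and Fam129a in the FB4-like cluster 3. Cyr61, Gadd45g and Fmod led cluster 4, Cxcl10 and Gm26802 cluster 5, and Agt, Lrrc55 and Scml4 cluster 6. Bean1, Wif1 and Sv2b led the FB5-like cluster 7, Nmur2, Actc1 and Cnn1 the SMC-like cluster 8, Adra2a, Serpina1b and Slc38a11 cluster 9, and Tacr1, Adgrf5 and Itga8 the vFB3-like cluster 10. The unnamed fibroblasts were split by Amotl2, which encodes a YAP-binding angiomotin and is a known YAP/TAZ target. Clusters 1 and 4, with 194 and 281 CPM of Amotl2, are called YAP-target-high, and clusters 2, 5 and 6, with 49.95, 77.8 and 61.2 CPM, YAP-target-low. A split by Ajuba, another target, gave the same 2 sets. Fos, an immediate early gene, was low in clusters 1, 2 and 6 (106 to 562 CPM) and high in clusters 4 and 5 (1836 and 2817 CPM), so each comparison was also made within the low and the high set.

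The targeted genes were counted first. Lats1 (mm10 chromosome 10, 7681214 to 7716460, plus strand, protein coding) gave 656 UMIs and Lats2 (chromosome 14, 57689662 to 57758388, minus strand, protein coding) 2466 UMIs, which is 14.2 CPM (13.2–15.4) and 53.5 CPM (51.5–55.7). Both transcripts were thus still counted at this time point in cells sorted for recombination of the reporter. 3-prime tags need not lie in the deleted part of a floxed gene and no WT level was used here, so the label is not checked by these counts. Gm49361, an annotated gene on the same strand, overlaps the last 1000 bases of Lats2, and reads from that stretch cannot be told apart. As a bound on free RNA, Y-linked genes in cells with at least 5 Xist UMIs reached 8.64% of their level over all cells, and that share of the library level is 1.23 CPM for Lats1 and 4.63 CPM for Lats2.

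Among the unnamed fibroblasts, Lats1, a kinase at the end of the cascade, was lowest in the clusters where the YAP/TAZ target was high. Cluster 1 had 8.81 CPM of Lats1 (6.97–11.001) and cluster 4 had 12.6 CPM (10.2–15.4). Clusters 2, 5 and 6 had 16.7 CPM (13.8–19.97), 17.8 CPM (14.6–21.5) and 16.1 CPM (12.2–20.9). Both YAP-target-high clusters thus lay below all 3 YAP-target-low clusters, but the interval of cluster 4 overlapped those of all 3. FB4-like cells had 14.8 CPM, FB5-like cells 17.0 CPM, SMC-like cells 19.9 CPM, cluster 9 15.6 CPM and vFB3-like cells 12.04 CPM. In the same order Amotl2 stood at 160, 148, 43.8, 209 and 206 CPM there, against 194 CPM in cluster 1. No neighbours in the order of the 10 Lats1 levels had a ratio whose interval lay off 1. Cluster 1 could be set apart from every cluster except 9 and 10, whose counts were 9 and 7 UMIs.

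Lats2, its paralog and the other targeted kinase, had the sides the other way round. Clusters 1 and 4 had 64.5 CPM (59.3–70.0) and 81.4 CPM (75.2–88.1) of Lats2, and clusters 2, 5 and 6 had 31.6 CPM (27.5–36.0), 43.4 CPM (38.3–48.9) and 44.5 CPM (37.8–52.1). Both YAP-target-high clusters lay above all 3 YAP-target-low clusters, and their intervals did not overlap. The FB4-like cells had 43.8 CPM (39.5–48.5), FB5-like 53.7 CPM, SMC-like 38.5 CPM, cluster 9 76.0 CPM (55.2–102) and vFB3-like cells 80.8 CPM (59.4–108). Clusters 9 and 10 could not be set apart from cluster 4, the highest, and cluster 8 could not be set apart from cluster 2, the lowest.

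**Figure D1:**
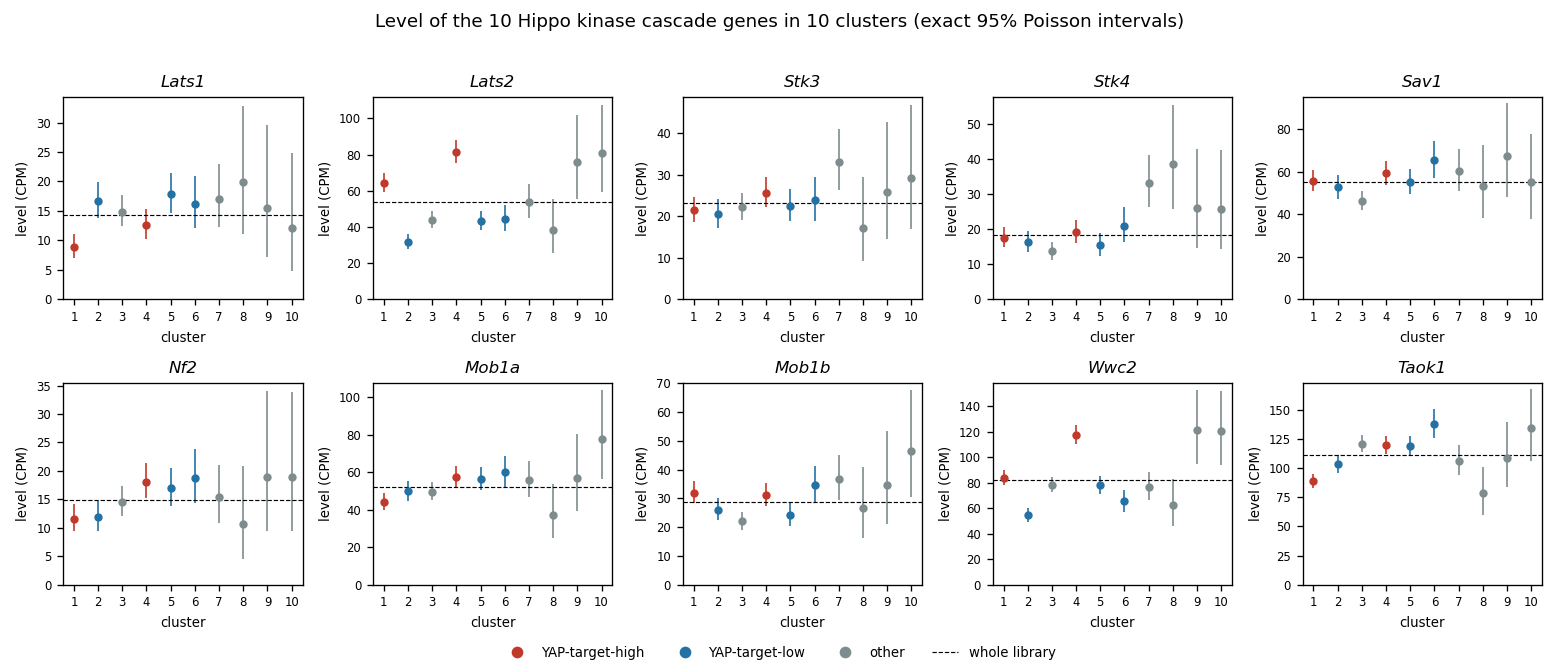
Level in CPM (y axis) of the 10 Hippo kinase cascade genes in clusters 1 to 10 (x axis), with exact 95% Poisson intervals. Red points are the YAP-target-high clusters 1 and 4, blue points the YAP-target-low clusters 2, 5 and 6, grey points the other clusters, and the dashed line is the whole library. Lats2 and Wwc2 are higher and Lats1 lower in the red clusters than in the blue ones, while Sav1 lies between 46.3 and 67.4 CPM throughout.

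Pooled over cells, Lats2 had 1197 UMIs in the YAP-target-high clusters and 641 in the YAP-target-low clusters, or 72.4 against 38.7 CPM, a ratio of 1.87 (1.70–2.06). Lats1 had 175 against 281 UMIs, or 10.6 against 17.0 CPM, a ratio of 0.624 (0.514–0.757). Wwc2, a scaffold of the KIBRA family that promotes LATS activity, had 99.4 against 65.6 CPM, a ratio of 1.52 (1.40–1.64). Lats2 and Wwc2 were thus the 2 of 10 members at least 1.5-fold higher, where 4.82% of the 10907 genes with at least 100 UMIs were, and Lats1 the 1 of 10 at least 1.5-fold lower, where 6.57% were. The median ratio was 1.04 over the members and 0.978 over all genes tested. Pdgfrb, which drives the Cre, stood at 692 against 414 CPM on these sides, and its part in the levels of Lats1 and Lats2 was not tested. The cells of the 2 sides differed in depth, with medians of 11590 and 9666 UMIs, and among cells with 8000 to 14000 UMIs the 3 ratios stayed inside these intervals. With classes set by marker score instead of clusters none of the 3 reached 1.5-fold, with 0.876 (0.658–1.16) for Lats1, 1.42 (1.23–1.64) for Lats2 and 1.36 (1.21–1.53) for Wwc2.

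The 3 differences were also measured apart in the clusters of low and of high Fos, in which Fos itself still stood at 106 against 448 CPM and at 1836 against 2817 CPM. Within low Fos (cluster 1 over clusters 2 and 6) the ratio was 0.535 (0.404–0.704) for Lats1, 1.80 (1.58–2.05) for Lats2 and 1.44 (1.29–1.60) for Wwc2, so that 1 member was at least 1.5-fold higher (background 4.8%) and 1 lower (background 10.4%). Within high Fos (cluster 4 over cluster 5) the ratios were 0.709 (0.534–0.941), 1.88 (1.62–2.17) and 1.503 (1.34–1.68), so that 2 members were past 1.5-fold upward (background 5.94%) and 0 downward (background 4.61%). Lats1 kept a ratio under 1 in both sets and passed the fold in the first of them.

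FB4-like cells gave a separate look, chosen after cluster levels had been seen. At a finer resolution of 1.0 they fell into a sub-cluster of 177 cells with 371 CPM of Amotl2 and another of 511 cells with 81.0 CPM, while Fos stood at 1191 and 1972 CPM. Between the former and the latter, Lats2 stood at 69.8 against 33.9 CPM, a ratio of 2.06 (1.67–2.54). Lats1 had 20 against 107 UMIs, or 8.57 against 17.3 CPM, a ratio of 0.496 (0.292–0.805). Wwc2 had 116 against 64.0 CPM, a ratio of 1.81 (1.55–2.12). These were again the 2 members at least 1.5-fold higher (background 5.57%) and the 1 member at least 1.5-fold lower (background 6.5%). Submucosal and unnamed fibroblasts share no cells in these comparisons, although both come from the same library.

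**Figure D2:**
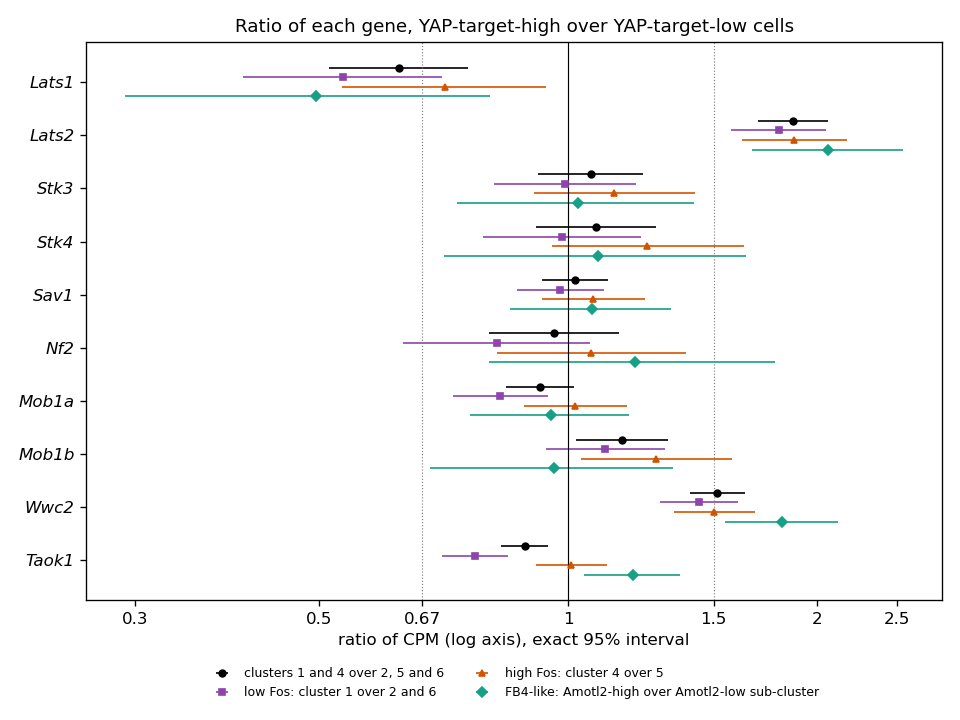
Ratio of CPM (x axis, log scale) of each member between YAP-target-high and YAP-target-low cells, with exact 95% conditional binomial intervals. Symbols stand for clusters 1 and 4 over 2, 5 and 6 (black circles), the low Fos set (purple squares), the high Fos set (orange triangles) and the 2 FB4-like sub-clusters (green diamonds), and dotted lines mark 1.5-fold. All 4 ratios of Lats2 and Wwc2 lie above 1 and all 4 of Lats1 below 1, and each of the other members has ratios on both sides of 1.

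Wwc2 (chromosome 8, 47823959 to 47990924, minus strand) was the upstream regulator that followed Lats2 most closely. Clusters 1 and 4 had 83.7 CPM (77.8–90.0) and 117 CPM (110.0–125) of Wwc2, and clusters 2, 5 and 6 had 54.5, 78.2 and 65.5 CPM. FB4-like, FB5-like and SMC-like cells had 78.1, 76.7 and 62.4 CPM, and cluster 9 and the vFB3-like cells had 121 and 120.4 CPM. Cluster 4 was above cluster 1, its neighbour in the order, and cluster 1 and cluster 5 had intervals that overlapped.

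Across the 10 clusters, the correlation of log2(CPM + 1) of Lats2 with Wwc2 was r = 0.953, and Wwc2 was 1 of the 5 genes most like Lats2 of 8191 genes with at least 500 UMIs. The others were Sept11 (r = 0.971), Txnrd1 (0.962), Gpc6 (0.953) and Snx33 (0.932), and Amotl2 had r = 0.893. Among the genes most like Lats1 were Tmem87b (0.918), Lncpint (0.898), Ccni (0.887) and Smap2 (0.884). Lats1 had r = -0.631 with Lats2 and -0.687 with Amotl2. These values describe 10 clusters of 45 to 731 cells that share 1 library and its depth, and clusters are not replicates.

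As a share of the UMIs of the Lats1 and Lats2 pair, which does not depend on the depth of a cell, Lats2 took 79.0% (77.5–80.4) in the library. It took 88.0% (85.2–90.4) in cluster 1 and 86.6% (83.9–89.0) in cluster 4, against 65.5% (60.1–70.6), 70.9% (66.1–75.5) and 73.5% (67.0–79.3) in clusters 2, 5 and 6. The YAP-target-high clusters lay above the YAP-target-low clusters with no overlap of intervals. FB4-like cells had 74.7%, FB5-like 76.0%, SMC-like 65.9% (50.1–79.5), cluster 9 83.0% and vFB3-like cells 87.0% (75.1–94.6). Capture can differ between the genes, so that the shares compare clusters and not the abundance of the kinases.

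**Figure D3:**
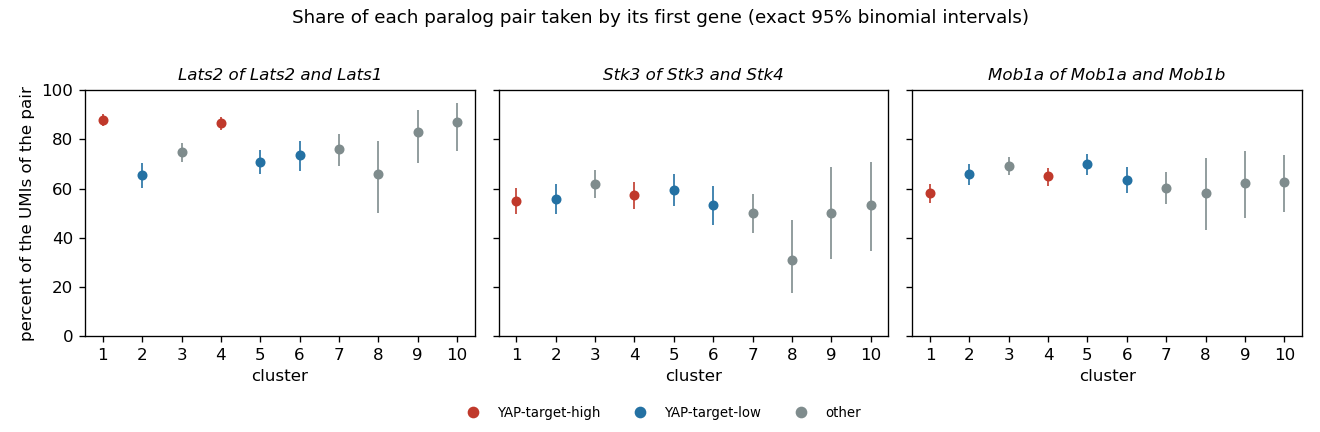
Percent of the UMIs of a paralog pair taken by its first gene (y axis) in clusters 1 to 10 (x axis), with exact 95% binomial intervals, for Lats2 of Lats1 and Lats2, Stk3 of Stk3 and Stk4, and Mob1a of Mob1a and Mob1b. Red, blue and grey points are YAP-target-high, YAP-target-low and other clusters. The red points of the Lats pair (88.0 and 86.6%) lie above the blue ones (65.5 to 73.5%), and the SMC-like cluster 8 has the lowest share of Stk3 (31.0%).

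Cells were then read one by one. After thinning each cell to 5000 UMIs, which left out 31 YAP-target-high and 24 YAP-target-low cells, a UMI of Lats2 was seen in 29.2% (26.8–31.6) of YAP-target-high and 15.7% (13.9–17.6) of YAP-target-low cells. Before thinning the shares were 53.5% and 31.1%. Wwc2 was seen in 39.7% (37.1–42.4) and 26.3% (24.2–28.5), and Lats1 in 5.6% (4.44–6.95) and 8.22% (6.92–9.68), or 65.5% and 45.5%, and 11.3% and 15.6%, before thinning. No cell type known to lack these genes was in the library, so the free RNA bound above stands in for a background share. The median cell held UMIs of 2 of the 10 members at this depth, and 12.9% of 4014 cells held none, so single cells cannot be sorted into states by these genes.

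Unnamed fibroblasts were also grouped by their own Amotl2 UMIs at 5000 UMIs, a grouping added after the clusters had been seen. Lats2 stood at 42.3 CPM (38.1–46.9) in the 1729 cells with 0, 57.1 CPM (49.6–65.3) in the 743 with 1, 74.0 CPM (61.2–88.6) in the 319 with 2 and 76.8 CPM (59.7–97.4) in the 177 with 3 or more. Wwc2 stood at 67.9, 93.1, 101 and 121 CPM in the same cells, and the ratio of the last group to the first was 1.81 (1.38–2.36) for Lats2 and 1.78 (1.44–2.19) for Wwc2. Lats1 had 15.7, 12.1, 11.9 and 16.9 CPM, with a ratio of 1.08 (0.587–1.84) from 15 UMIs in the last group, an interval that holds both 1 and the ratio between clusters. Pdgfrb stood at 488, 578, 650.2 and 725 CPM in the same groups. Taok1 had a ratio of 1.26 (1.03–1.53), on the other side of 1 from its pooled value between clusters, and the intervals of the other 6 members held 1. In FB4-like cells Lats1 stood at 17.8 CPM (12.5–24.7), 9.52 CPM and 2.82 CPM (0.0713–15.7) with 0, 1 and 2 UMIs of Amotl2, and 0 UMIs were counted in the 57 cells with 3 or more, where 3 UMIs would be 10.5 CPM and the exact upper limit is 12.9 CPM. Lats2 had 33.7, 50.3, 64.8 and 59.6 CPM in these groups, and the ratio of the last to the first was 1.77 (0.976–3.05) for Lats2 and 1.23 (0.757–1.93) for Wwc2, both holding 1.

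**Figure D4:**
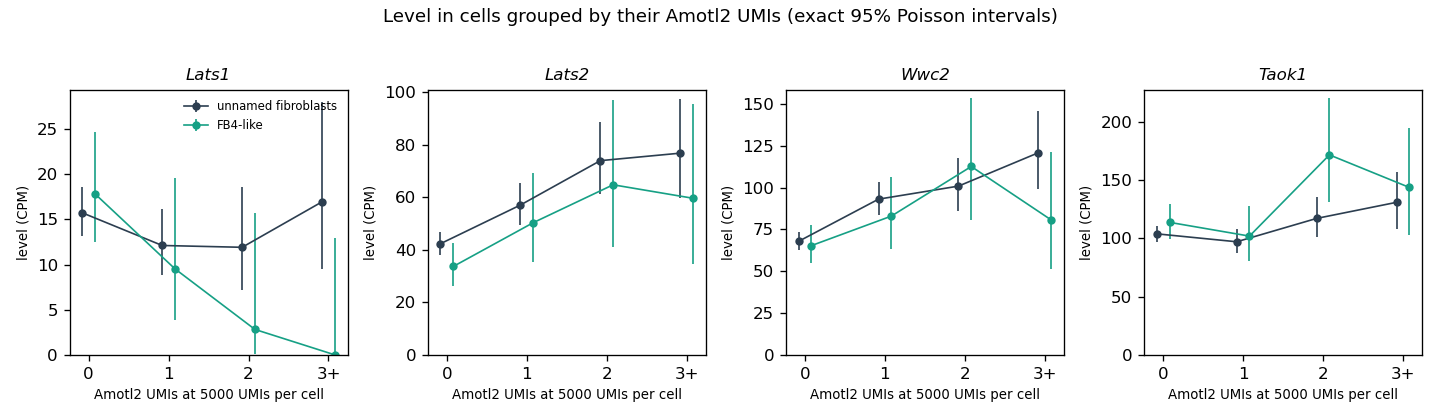
Level in CPM (y axis) of Lats1, Lats2, Wwc2 and Taok1 in cells with 0, 1, 2 or 3 or more Amotl2 UMIs after thinning to 5000 UMIs per cell (x axis), with exact 95% Poisson intervals. Dark points are unnamed fibroblasts and green points FB4-like cells. Lats2 goes from 42.3 to 76.8 CPM in unnamed fibroblasts, and Lats1 from 17.8 to 0 CPM in FB4-like cells but from 15.7 to 16.9 CPM in unnamed fibroblasts.

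Targets were then compared between cells with and without a UMI of each member, inside each cluster and pooled over clusters by Mantel-Haenszel weights, with approximate intervals. For the sum of Amotl2, Ajuba, Cyr61 and Ctgf, the pooled ratio was 1.12 (1.07–1.17) for Lats2, 1.14 (1.09–1.18) for Wwc2 and 1.11 (1.04–1.19) for Nf2. The first 2 were higher in 7 of 10 clusters each and Nf2 in 6 of 10. Stk3 and Mob1b had 1.07 (1.01–1.14) and 1.06 (1.01–1.12), in 5 and 6 of 10 clusters. The intervals of Lats1, 1.03 (0.959–1.11), and of Stk4, Sav1, Mob1a and Taok1 held 1. For Amotl2 alone the ratio was 1.16 (1.06–1.26) for Lats2, 1.19 (1.10–1.28) for Wwc2, 1.14 (1.05–1.24) for Mob1a and 1.13 (1.05–1.22) for Taok1, higher in 9, 7, 5 and 7 of 10 clusters. It was 0.970 (0.832–1.13) for Lats1 and 0.999 (0.863–1.16) for Nf2, higher in 5 and 3 of 10 clusters.

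The MST kinases Stk3 (chromosome 15, 34875496 to 35178921, minus strand) and Stk4 (chromosome 2, 164070322 to 164155524, plus strand), which phosphorylate LATS, did not pass 1.5-fold. Their ratios were 1.07 (0.921–1.23) and 1.08 (0.916–1.28) between YAP-target-high and YAP-target-low clusters. At resolution 1.0 and with classes by marker score Stk4 had 1.22 (1.03–1.45) and 1.30 (1.002–1.69). Stk4 had its higher levels outside the unnamed fibroblasts, with 38.5 CPM (25.8–55.3) in SMC-like and 33.1 CPM (26.3–41.1) in FB5-like cells, against 13.7 CPM (11.3–16.4) in FB4-like and 15.3 to 21.0 CPM in unnamed fibroblasts. The highest level of Stk3 was 33.1 CPM (26.3–41.1), in FB5-like cells, and its lowest 17.3 CPM (9.20–29.5), in SMC-like cells. The former could not be set apart from clusters 4, 9 and 10, and the latter, from 13 UMIs, only from FB5-like cells. The share of Stk3 in the pair was 31.0% (17.6–47.1) in SMC-like cells, from 42 UMIs, and 61.9% (56.2–67.3) in FB4-like cells. At 5000 UMIs, a UMI of Stk4 was seen in 22.7% (13.8–33.8) of SMC-like and 5.89% (4.24–7.94) of FB4-like cells (30.3% and 15.4% before thinning). At 2000 UMIs the shares were 5.26% (1.45–12.9) and 2.03% (1.11–3.38), and their intervals overlapped.

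Sav1 (chromosome 12, 69965012 to 69987002, minus strand), the scaffold of the MST kinases, was the most even member among the larger clusters after Stk3 and Mob1a. It ranged from 46.3 CPM in FB4-like cells to 67.4 CPM in cluster 9, and its ratio between YAP-target-high and YAP-target-low clusters was 1.02 (0.930–1.12). Nf2 (chromosome 11, 4765845 to 4849536, minus strand), which encodes merlin and brings LATS to the membrane, ranged from 10.6 to 19.0 CPM with a ratio of 0.962 (0.803–1.15). Within the YAP-target-high side Nf2 differed between cluster 1, 11.6 CPM (9.50–14.1), and cluster 4, 18.1 CPM (15.2–21.3), whose intervals did not overlap.

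The LATS cofactors Mob1a (chromosome 6, 83326016 to 83343776, plus strand) and Mob1b (chromosome 5, 88720855 to 88764220, plus strand) had ratios of 0.926 (0.841–1.02) and 1.16 (1.02–1.32). Mob1a took 64.6% of the pair in the library, 58.0% (54.2–61.8) in cluster 1 and 69.8% (65.6–73.9) in cluster 5. In vFB3-like cells, first in both orders, they had 77.4 CPM (56.5–104) and 46.4 CPM (30.6–67.6), which could not be set apart from clusters 4, 5, 6, 7 and 9 for Mob1a or 1, 4, 6, 7, 8 and 9 for Mob1b. Taok1 (chromosome 11, 77529162 to 77607815, minus strand), a kinase that acts on MST, was the most counted member with 5126 UMIs. Its level was 138 CPM (126–151) in cluster 6, 88.7 CPM (82.6–95.1) in cluster 1 and 78.4 CPM (59.7–101) in SMC-like cells. Its pooled ratio was 0.887 (0.830–0.947), but 0.772 (0.705–0.846) within low Fos, 1.01 (0.914–1.11) within high Fos and 1.20 (1.05–1.37) within FB4-like cells, so no single direction was measured.

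Between the highest and the lowest of the 6 clusters of at least 300 cells, 7 of 10 members differed by at least 1.5-fold, where 51.1% of 8191 genes with at least 500 UMIs did. The spread was 2.58-fold for Lats2, 2.15-fold for Wwc2 and 2.02-fold for Lats1, against a median of 1.51-fold over all these genes, and 1.25-fold for Stk3, 1.36-fold for Mob1a and 1.41-fold for Sav1.

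Other genes of the pathway, listed by name, were read in the same comparison. Of 12 other Hippo kinases with at least 100 UMIs (of 14 listed), 1 was at least 1.5-fold higher and 0 lower, beside 4.82% and 6.57% of all genes tested, with a median ratio of 0.801. The 1 was Map4k3, a kinase that acts in parallel with MST, at 96.5 against 34.9 CPM, a ratio of 2.76 (2.51–3.04). Of 11 upstream regulators (of 14), 2 were higher and 0 lower, with a median of 0.973. These were Frmd6, a FERM domain protein, with a ratio of 2.41 (2.29–2.55) and Rassf4, a RASSF family adaptor, with 2.82 (2.38–3.36). Of 10 genes of the STRIPAK complex (of 11), which dephosphorylates MST, none passed 1.5-fold in either direction and the median was 1.02. These counts differed in part between the Fos sets, where the genes named next were picked after their values were seen. Within low Fos the kinase Taok2 was lower, with 0.595 (0.474–0.744). Within high Fos Tnik was higher, with 1.59 (1.36–1.87), Map4k2 lower, with 0.647 (0.446–0.934), and Fat4 and Strn were higher, with 2.03 (1.65–2.51) and 1.52 (1.15–2.03).

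Of 5 YAP/TAZ targets (of 6), 4 were higher, beside 4.82% of all genes tested, and Amotl2 is one of them because it set the split. Ajuba stood at 15.1 against 3.86 CPM, Ctgf at 90.9 against 36.6 CPM and Cyr61 at 527 against 240.2 CPM, while Axl had a ratio of 0.689 (0.655–0.725). Within low Fos 3 targets were higher (4.8% of all genes) and 1 lower (10.4%), since Cyr61 stood at 170.3 against 157 CPM, a ratio of 1.09 (1.01–1.17), and Axl had 0.559 (0.520–0.601). Cluster 1 is therefore high in Amotl2, Ajuba and Ctgf and not in every target. Of the coactivators, Yap1 had a ratio of 0.953 (0.858–1.06) and Wwtr1, which encodes TAZ, 0.649 (0.610–0.690), and their partner Tead1 had 2.18 (2.03–2.34). Vegfc, the lymphatic growth factor the study turned on, had 228 against 41.3 CPM. Map4k3, Frmd6, Rassf4, Ajuba, Ctgf, Tead1 and Vegfc passed 1.5-fold in both Fos sets, as did Lats2 alone of the members. The share of all genes that did so in both was not counted, and it was 4.8% in the low and 5.94% in the high set taken singly. In the FB4-like sub-clusters Map4k3 and Frmd6 had ratios of 2.75 (2.12–3.56) and 2.28 (2.08–2.5), and Rassf4 had 25 UMIs in all. Of 4 targets tested there 2 were at least 1.5-fold higher (background 5.57%), Amotl2 and Cyr61, while Ctgf had 1.31 (1.07–1.61) and Axl 0.726 (0.657–0.801). Amotl2 is one of them because it set which sub-cluster was taken as high.

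The directions of Lats1, Lats2 and Wwc2 were the same in cells with Xist and no Y-linked UMI and in cells with Y-linked UMIs and no Xist, which are parts of 1 library and not samples. In the 2009 former cells the ratio was 0.693 (0.527–0.911) for Lats1, 1.93 (1.68–2.23) for Lats2 and 1.59 (1.42–1.78) for Wwc2. In the 1545 latter cells it was 0.508 (0.353–0.720), 1.69 (1.43–2.00) and 1.49 (1.31–1.69). Lats2 stood at 58.8 CPM (55.8–62.0) in the former and 48.0 CPM (44.7–51.5) in the latter over all clusters, and columns marked F made up 65.5% of cluster 1 and 34.6% of cluster 6. The part of that uneven makeup in the level of Lats2 was not tested.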

How the data were processed

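Sorted single stromal cells were sequenced with a 10x 3-prime kit. Per the labels, the authors used Cell Ranger 3.0.2, mm10 and Seurat 3.0.1. The deposited values are the natural log of 1 plus UMIs per 10000 UMIs of a cell. They gave whole UMIs for 100.00% of 13789523 nonzero values (tolerance 0.001), and all levels were computed from these 46054627 UMIs. Doublets were excluded by the authors at sorting and by a gene limit. Scrublet (scanpy 1.11.5) marked 0.219% of cells, a share too low to rely on, and no cell was removed.

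Seurat 5.3.0 was run with 2000 variable genes, UMI count and mitochondrial percent regressed out, 30 components and resolution 0.5. No member was among the variable genes. A marker counted in a cluster where 10% or more of the cells held it and its CPM reached 2 times the median over the rest. A name needed 3 markers and 75% of a list, and no more markers of another list than of its own among the 10 leading genes, a rule set after cluster levels had been seen. Rebuilt names can depart from the authors' own.

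Intervals are Poisson, conditional binomial or Clopper-Pearson. Only the conditional binomial intervals of the ratios were run on simulated counts. Those counts were drawn from the counting model that the interval assumes, so the spread between real cells was not checked. With 1 library, no p-value was computed. Named genes are the members, list genes past 1.5-fold in both Fos sets, the 5 genes most like Lats1 and Lats2 and 3 leading genes of each cluster, and some of these are not reported here. Map4k3, Frmd6 and Rassf4 come from that rule, and Axl, Cyr61, Yap1 and Wwtr1 were named after their values were seen. Members and lists were chosen with earlier results of these data known. Coordinates are from GENCODE M21.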

Additional observations from a re-analysis of the deposited data

How the results depend on the processing

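The ratios between YAP-target-high and YAP-target-low clusters were recomputed under 18 alternatives, 1 of which was added after seeing the data, and the split by Ajuba left the sets as they were. Of 180 values, 160 stayed inside the interval of the reported one and 20 moved out of it. On the other side of 1 from the reported value lay 21, of which 5, for Taok1 and Mob1b, belong to a reported interval off 1. Lats1 stayed below 1 (0.508 to 0.876), and Lats2 (1.42 to 2.19) and Wwc2 (1.36 to 1.79) stayed above 1, in all 18, but they were no longer past 1.5-fold in 5, 1 and 7 of them. With classes set by marker score, the values were 0.876 for Lats1, 1.42 for Lats2, 1.36 for Wwc2, 1.30 (1.002–1.69) for Stk4, 0.970 for Mob1b and 1.03 for Taok1, from 535 and 785 cells, and the interval of Lats1 (0.658–1.16) held 1. With at most 5% mitochondrial UMIs Lats2 had 1.69, and in cells with Y-linked UMIs only Lats1 had 0.508 and Lats2 1.69. At resolution 1.0 Mob1a had 1.02 and Taok1 1.02. Within low Fos they had 0.829 and 0.772, and within high Fos 1.02 and 1.01. With clusters 1 and 6, which reached 3 vFB3 markers, left out, the added alternative, the ratios of cluster 4 over clusters 2 and 5 were 2.19 for Lats2, 1.27 for Nf2, 1.09 for Mob1a, 1.79 for Wwc2 and 1.08 for Taok1. The cause of these shifts was not tested. Genes at least 1.5-fold higher numbered 318 with a minimum of 500 UMIs and 1028 with 10, against 526, and those lower 335 and 1580, against 717, since other genes were then tested. Of 1160 levels 87 moved out of their intervals, and of 117 paralog shares 11 did. Shares of cells changed with thinning for all 10 members. No paired analysis was possible because 1 library was analysed. With 1 library, depth limits rare groups: clusters 9 and 10 hold 9 and 7 UMIs of Lats1 and could not be set apart from the lowest or the highest cluster.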
